A study of Mus musculus with 9 samples.

Results

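Replication-dependent histone genes lie in 4 clusters of the mouse genome, named Hist1 to Hist4. The protein-coding genes of GENCODE M21 whose symbols begin with Hist1h, Hist2h, Hist3h or Hist4h were taken, which gave 67 genes among the 35071 genes that could be measured. They encode 6 linker histones H1, 18 H2A, 18 H2B, 12 H3 and 13 H4. In the annotation (GRCm38), 54 of them lie in the Hist1 cluster on chromosome 13 between 21715763 and 23934851, 10 in Hist2 on chromosome 3 between 96219865 and 96270132, 2 in Hist3 on chromosome 11 and 1 in Hist4 on chromosome 6.

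RNA from subcutaneous fat of C57BL/6 mice aged 24 weeks was sequenced in 3 genotypes, with 3 libraries each. WT are wild-type littermates, and Hete KO and Homo KO, as labelled and read here as heterozygous and homozygous, are mice with a knockout of AGO1, a small-RNA-binding Argonaute protein, in endothelial cells. The study asked which molecular changes accompany the metabolic phenotype of these knockouts. The whole tissue was sequenced, so a gene deleted in endothelial cells was read against the RNA of all other cells. The sources used here give neither the Cre driver, nor the sex of the mice, nor any pairing of the libraries. Nothing states that each library came from a separate mouse, and if it did not, the p-values measure only the spread between these libraries.

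Core histones H2A, H2B, H3 and H4 form the protein spool around which DNA is wound, and H1 binds the linker between spools. Clustered histone genes are transcribed mainly in S phase, when newly copied DNA has to be packed. Their mRNAs are unusual in ending with a short hairpin, the stem-loop, in place of a poly(A) tail. Stem-loop binding protein (Slbp) holds that hairpin during processing and translation, and some histone genes also give polyadenylated mRNA in cells that do not divide. Fat tissue holds non-dividing adipocytes, with progenitor, endothelial and immune cells among them that can divide. Whether the libraries were made by poly(A) selection or by removal of ribosomal RNA was not stated, so the share of mRNA without a tail that they captured is unknown.

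The stem-loop is shown first, because it defines the class. The motif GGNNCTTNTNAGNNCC, searched on the transcript strand, was present after the stop codon in 46 of the 67 genes, 21 to 58 bases downstream of it. Within the last 150 bases it occurred in 24 of 75 transcripts of these genes (32.0%) and in 5 of 58623 other protein-coding transcripts (0.009%). The commonest form was shared by 26 genes of the H1, H2A, H2B and H3 types. A form with a different stem was found in 7 H4 genes. Capitals mark the 4-base loop in the GENCODE transcript sequences below, each given with 5 bases on either side.
Hist1h1e: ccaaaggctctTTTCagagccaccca
Hist1h2ag: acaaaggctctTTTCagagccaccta
Hist2h2aa1: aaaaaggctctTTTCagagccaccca
Hist1h3e: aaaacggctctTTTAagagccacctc
Hist1h3g: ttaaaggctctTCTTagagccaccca
Hist1h4h: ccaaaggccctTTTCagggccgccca
Hist4h4: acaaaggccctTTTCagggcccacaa
The first 5 of these share 1 stem, with Hist1h3e and Hist1h3g differing in the loop, and the H4 genes Hist1h4h and Hist4h4 carry another stem. Hist1h2ag ends 23 bases after the hairpin, whereas the Hist1h1e model runs on for 1153 bases and the Hist4h4 model for 2445 bases. By the length after the stop codon alone, 40 genes had a compact model (at most 150 bases after the stop codon) and 27 an extended one. Hist1h2bp at 150 bases and Hist1h4a at 154 bases lay just inside and just outside that limit. A poly(A) signal (AATAAA or ATTAAA) stood in the last 50 bases of 15 of the 27 extended and 2 of the 40 compact genes. Of the compact genes, 17 had no hairpin in the model, and those models stop within 48 bases of the stop codon.

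Close copies limit what can be said of single genes. The 13 H4 genes all encode 1 protein of 103 residues. The 12 H3 genes encode 2 proteins of 136 residues, 1 from 8 genes and 1 from 4, apart from a longer 181-residue form of Hist2h3c1. Among H2A genes, 9 of the Hist1 cluster encode 1 identical protein, and Hist2h2aa1 and Hist2h2aa2 encode another. For 19 of the 67 genes, under 20% of the 31-base words in their transcripts occurred in no other gene. The median share of such words was 30.85% in compact and 67.9% in extended genes. Values of single genes with a low share are therefore uncertain, and sums over each histone type are given beside them.

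Each library held between 20843427 and 28252001 estimated counts. Ago1 itself was at 69.9, 63.8 and 63.4 CPM (estimated counts relative to library size, scaled by the trimmed mean of M-values) in WT, at 51.2, 59.7 and 60.1 in Hete KO and at 62.2, 58.6 and 25.8 in Homo KO. All 6 knockout libraries lay below WT, mostly by little, and neither difference passed the test (edgeR adjusted p = 0.699 and 0.441). Adipocyte markers summed to between 23900 and 34300 CPM and endothelial markers to between 808 and 1210 CPM in every library. Skeletal muscle transcripts took 1.16%, 1.11% and 2.96% of counts in WT 1, WT 2 and Hete KO 2 and at most 0.144% elsewhere, and liver-type transcripts took 0.216% and 0.227% in WT 2 and WT 3 and at most 0.098% elsewhere. Histone values are therefore also given without those libraries where that changes them.

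The clustered histone genes together were lower in fat of both knockouts than in WT. Their summed level was 511, 555 and 549 CPM in WT, 403, 300 and 350 CPM in Hete KO and 403, 406 and 379 CPM in Homo KO. The knockout values did not overlap those of WT, while the 2 knockout groups overlapped each other. The ratio of group means was 0.652 for Hete KO and 0.735 for Homo KO, or -0.62 and -0.44 on the log2 scale. Both ratios use the same 3 WT libraries. In TPM, the abundance unit that corrects for transcript length, the sums were 1510, 1540 and 1350 in the WT libraries, 1050, 707 and 911 TPM in those of Hete KO and 1090, 1060 and 897 TPM in those of Homo KO, again with no overlap with WT. Muscle or liver transcripts were high in all 3 WT libraries and, among the knockouts, only in Hete KO 2. Their part in the histone difference was not tested. In bulk tissue, fewer cells that make histone mRNA and less histone mRNA per cell cannot be told apart.

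**Figure D1:**
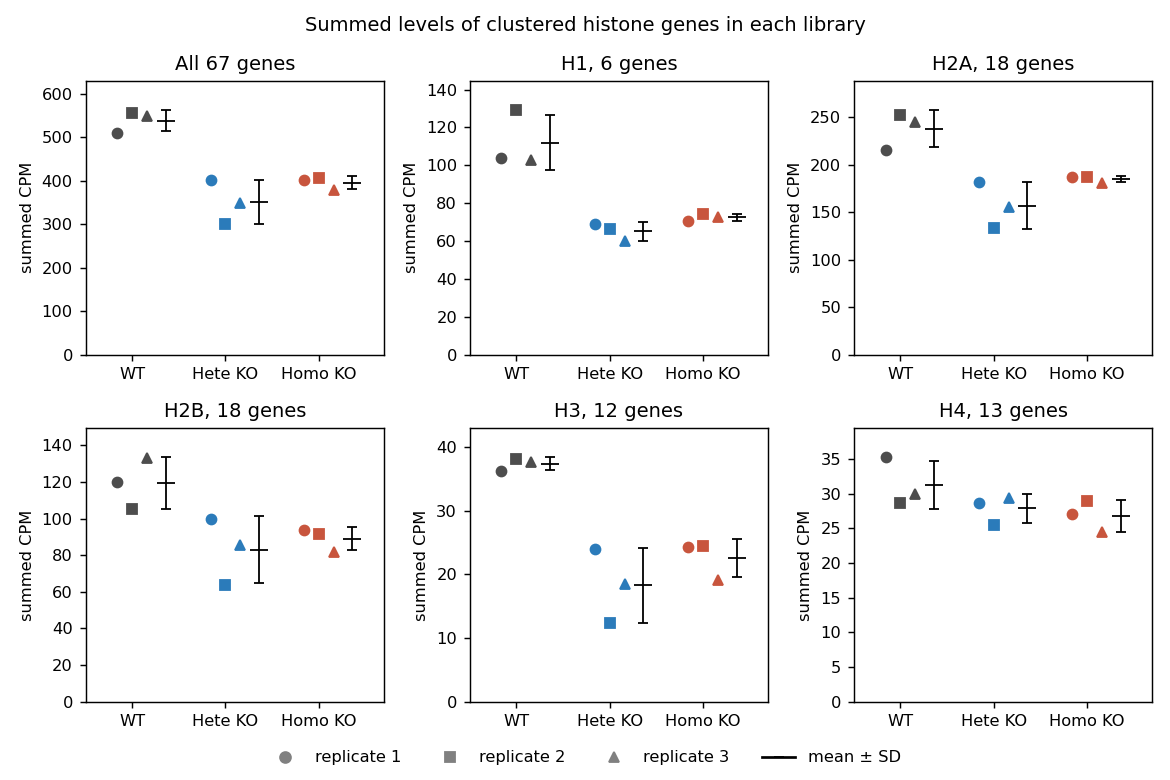
Summed CPM of the clustered histone genes (vertical axis) in the WT, Hete KO and Homo KO libraries (horizontal axis), for all 67 genes and for each histone type; symbols are single libraries and bars are the mean ± SD of 3 libraries. WT libraries lie above all knockout libraries for all types except H4, where the groups overlap.

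By type, H3 had the lowest ratios to WT in both CPM and TPM. Summed H3 levels were 36.3, 38.2 and 37.7 CPM in WT, 24.0, 12.3 and 18.5 CPM in Hete KO and 24.3, 24.4 and 19.2 CPM in Homo KO, with log2 ratios to WT of -1.03 and -0.72. H1 was at 112 ± 14.6 CPM (SD, n = 3) in WT, 65.0 ± 4.79 CPM in Hete KO and 72.5 ± 1.86 CPM in Homo KO, with log2 ratios of -0.78 and -0.63. H2A stood at 238 ± 19.7, 157 ± 24.4 and 185 ± 3.55 CPM in the same order, with log2 ratios of -0.60 and -0.37. H2B stood at 119 ± 13.7, 83.0 ± 18.1 and 89.0 ± 6.47 CPM, with log2 ratios of -0.52 and -0.42 that in TPM were -0.79 and -0.65, close to those of H1 (-0.78 and -0.62). None of these 4 types overlapped between WT and either knockout. H4 was 35.2, 28.7 and 29.9 CPM in WT, 28.7, 25.5 and 29.4 CPM in Hete KO and 27.0, 28.9 and 24.4 CPM in Homo KO. These H4 values overlapped, with log2 ratios of -0.17 and -0.22, but in TPM they did not, and the ratios were then -0.40 and -0.46. As a share of all clustered histone counts, H3 took 6.87% to 7.11% in WT and 4.10% to 6.04% in the knockouts, and H4 5.18% to 6.90% in WT and 6.45% to 8.49% in the knockouts.

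Gene by gene, edgeR's quasi-likelihood test could be run on 56 of the 67 genes among 17968 genes in all. Low counts left out 11 genes, among them Hist1h2aa and Hist1h2ba, which had no count in any library. Of the 56 genes, 7 reached the count minimum in fewer than 3 of the 6 knockout libraries and passed with the help of WT, so the counts over the tested genes that follow are descriptions and not support for a difference. In Hete KO against WT, 2 of the genes passed the adjusted threshold of 0.05, both lower, beside a background of 0.417% of all tested genes called (0.267% called lower). In Homo KO against WT none passed, beside a background of 0%, and 18 were lower at an unadjusted p under 0.05 (background 8.68%), against 24 in Hete KO (background 12.1%). DESeq2, the alternative count test, called 14 lower in Hete KO and 8 lower in Homo KO, where it called 5.70% and 2.02% of all genes lower. A full separation of groups was seen for 27 genes, lower in every Hete KO library than in every WT library (background 12.1%) and for 25 in Homo KO (background 11.2%), and no gene was higher in this way (background 12.6% and 10.9%). The median log2 fold change was -0.95 in Hete KO and -0.80 in Homo KO, beside 0.02 and -0.01 over all tested genes. A value below 0 was found for 50 and 49 of the 56 genes, where 48.6% and 50.7% of all genes lay below 0.

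**Figure D2:**
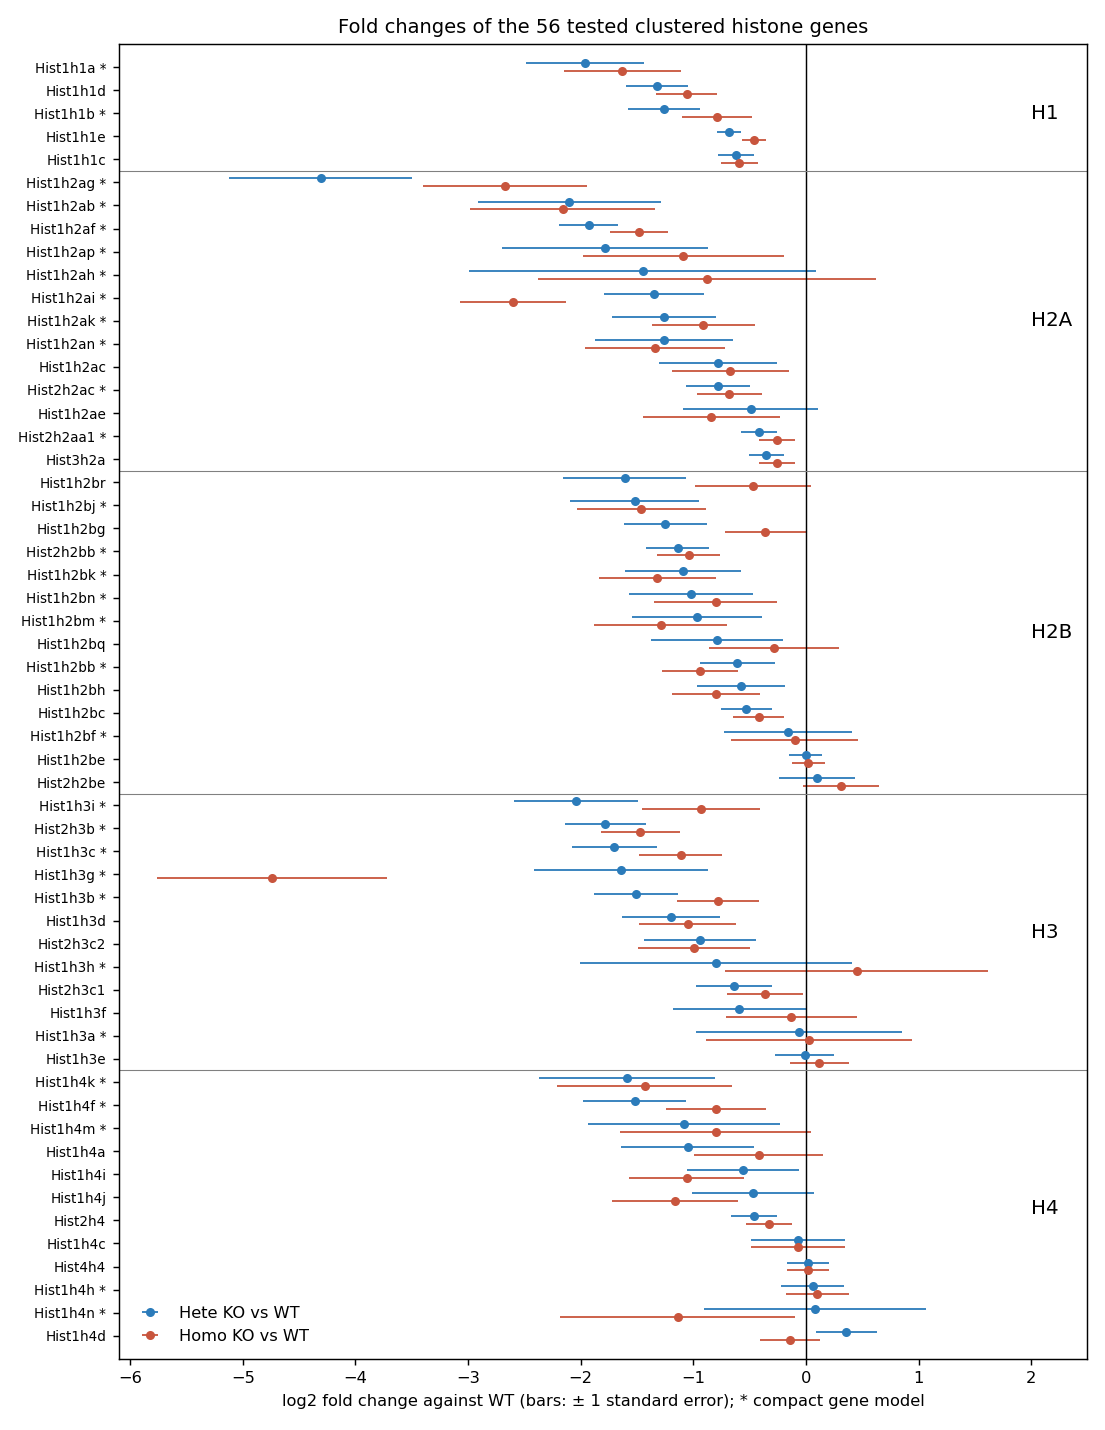
Log2 fold change against WT (horizontal axis, bars of 1 standard error) of the 56 tested genes, grouped by histone type and ordered by the Hete KO value, for Hete KO (blue) and Homo KO (red); an asterisk marks a compact gene model. Most points lie left of 0, and several H4 genes with Hist1h2be, Hist2h2be and Hist1h3e lie near 0.

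Linker histones gave the most even picture. Hist1h1e encodes the somatic linker histone H1.4, at 23620629 to 23622558 of chromosome 13 (minus strand). Its level was 39.2, 44.2 and 38.3 CPM in WT, 27.0, 23.1 and 25.9 CPM in Hete KO and 29.4, 29.4 and 29.8 CPM in Homo KO. Every knockout library was below every WT library, and Hete KO was also below Homo KO without overlap. The log2 fold change was -0.68 in Hete KO (SE 0.107, edgeR adjusted p = 0.0426) and -0.46 in Homo KO (SE 0.107, edgeR adjusted p = 0.162). Hist1h1c, which encodes H1.2, was the most abundant of the type, at 42.2, 50.3 and 45.4 CPM in WT, 30.4, 35.3 and 23.7 CPM in Hete KO and 25.8, 32.8 and 33.2 CPM in Homo KO. It did not overlap either, with log2 fold changes of -0.62 and -0.59 (edgeR adjusted p = 0.0833 and 0.188). Hist1h1d, which encodes H1.3, stood at 15.5, 25.9 and 13 CPM in WT against 6.20 to 8.08 CPM in Hete KO and 7.15 to 11.1 CPM in Homo KO. Its log2 fold changes were -1.32 (edgeR adjusted p = 0.0606) and -1.06 (edgeR adjusted p = 0.176). The compact genes Hist1h1a and Hist1h1b were low, at no more than 4.93 CPM, and also lower in all knockout libraries. Hist1h1t, the testis linker histone, had at most 1 count in a library and was not tested. Hist1h1e shares 496 bases on the same strand with a long model of the H2B gene Hist1h2be, whose own fold changes were near 0.

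Hist1h2af, an H2A gene of the plus strand of chromosome 13 (23533906 to 23534304), gave the smallest p in both comparisons with WT. Its level was 8.64, 9.02 and 7.34 CPM in WT, 2.63, 1.43 and 2.48 CPM in Hete KO and 3.26, 2.71 and 3 CPM in Homo KO. All knockout libraries lay below WT by a wide gap, and Hete KO lay below Homo KO. The log2 fold change was -1.93 in Hete KO (SE 0.261, edgeR adjusted p = 0.0325) and -1.48 in Homo KO (SE 0.256, edgeR adjusted p = 0.148). These were 206 to 225 estimated counts in WT and 34 to 73 in the knockouts, and only 14.1% of the gene's 31-base words are its own. The call in Hete KO was lost without WT 2, Hete KO 2, Hete KO 3 or any 1 of the Homo KO libraries (adjusted p between 0.0598 and 0.155), and that of Hist1h1e was lost in those cases and without WT 3 (between 0.0631 and 0.188). The fold changes themselves stayed between -2.07 and -1.51 and between -0.70 and -0.52 over 20 alternatives.

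Other H2A genes of the Hist1 cluster varied more between WT libraries, and none of them was called by edgeR. Hist1h2ag was at 3.38, 8.18 and 3.39 CPM in WT, 0.260, 0.464 and 0 CPM in Hete KO and 1.04, 0.333 and 0.945 CPM in Homo KO. Its fitted log2 fold changes were -4.31 (edgeR adjusted p = 0.0576) and -2.67 (edgeR adjusted p = 0.184), but it is 1 of the 7 genes that passed the count filter with the help of WT, so these values and its separation of groups are descriptions only. Hist1h2ai was at 10.5, 17.8 and 6.03 CPM in WT, 4.41, 4.76 and 4.23 CPM in Hete KO and 0.770, 2.52 and 2.34 CPM in Homo KO. Here Homo KO was the lowest group, at a log2 fold change of -2.60 (edgeR adjusted p = 0.154) against -1.35 in Hete KO (edgeR adjusted p = 0.127). Hist1h2ag and Hist1h2ai encode the same protein, and only 20.2% and 8.0% of their 31-base words are their own. The sum over the 9 genes of that protein is therefore given beside them. Hist1h2ag and Hist1h2ai each share words with 24 other genes, some of them outside those 9, so that sum is uncertain too. The 9-gene sum was 31.7, 39.3 and 22.4 CPM in WT, 12.4, 9.74 and 9.48 CPM in Hete KO and 11.1, 7.75 and 7.89 CPM in Homo KO. The WT libraries varied among themselves, yet the lowest stood above every knockout library, and the log2 ratios were -1.56 and -1.81.

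The largest single contributor was Hist2h2aa1, an H2A gene of chromosome 3 (96245497 to 96246082, plus strand), which took 27.4% to 38.2% of all clustered histone counts. By TPM it was the most abundant of the genes, with a mean of 495 over the 9 libraries, followed by the H2B gene Hist1h2bc at 78.0 and the H2A gene Hist2h2ac at 56.5. Its level was 140, 165 and 185 CPM in WT, 143, 103 and 122 CPM in Hete KO and 150, 115 and 145 CPM in Homo KO. These CPM values overlapped between groups, with log2 fold changes of -0.42 (edgeR adjusted p = 0.170) and -0.26 (edgeR adjusted p = 0.438). In TPM, Hete KO at 509, 351 and 443 lay below WT at 532, 576 and 606, while Homo KO at 561, 405 and 475 TPM overlapped WT. Whether the gene differs from the other H2A genes in its response was not tested. In Homo KO 2 its near-identical copy Hist2h2aa2, none of whose 31-base words is its own, was credited with 799 counts and in the other libraries with 0. The 2 genes cannot be separated, and their sum gave log2 ratios of -0.42 and -0.13. Without this pair, the remaining 16 H2A genes summed to 75.8, 88.2 and 60.1 CPM in WT, 39.0, 30.2 and 34.7 CPM in Hete KO and 37.2, 33.8 and 36.1 CPM in Homo KO, with log2 ratios of -1.11 and -1.06. Hist2h2ac overlapped between groups, at 11.7 to 25.5 CPM in WT, 8.94 to 12.4 CPM in Hete KO and 9.36 to 14.7 CPM in Homo KO. Hist3h2a, on chromosome 11, was at 9.98 to 13.4 CPM in WT, 8.57 to 9.23 CPM in Hete KO and 8.91 to 9.87 CPM in Homo KO, without overlap in CPM but by a small step, and in TPM Homo KO overlapped WT. Its fold changes were -0.35 and -0.26 (edgeR adjusted p = 0.230 and 0.445).

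**Figure D3:**
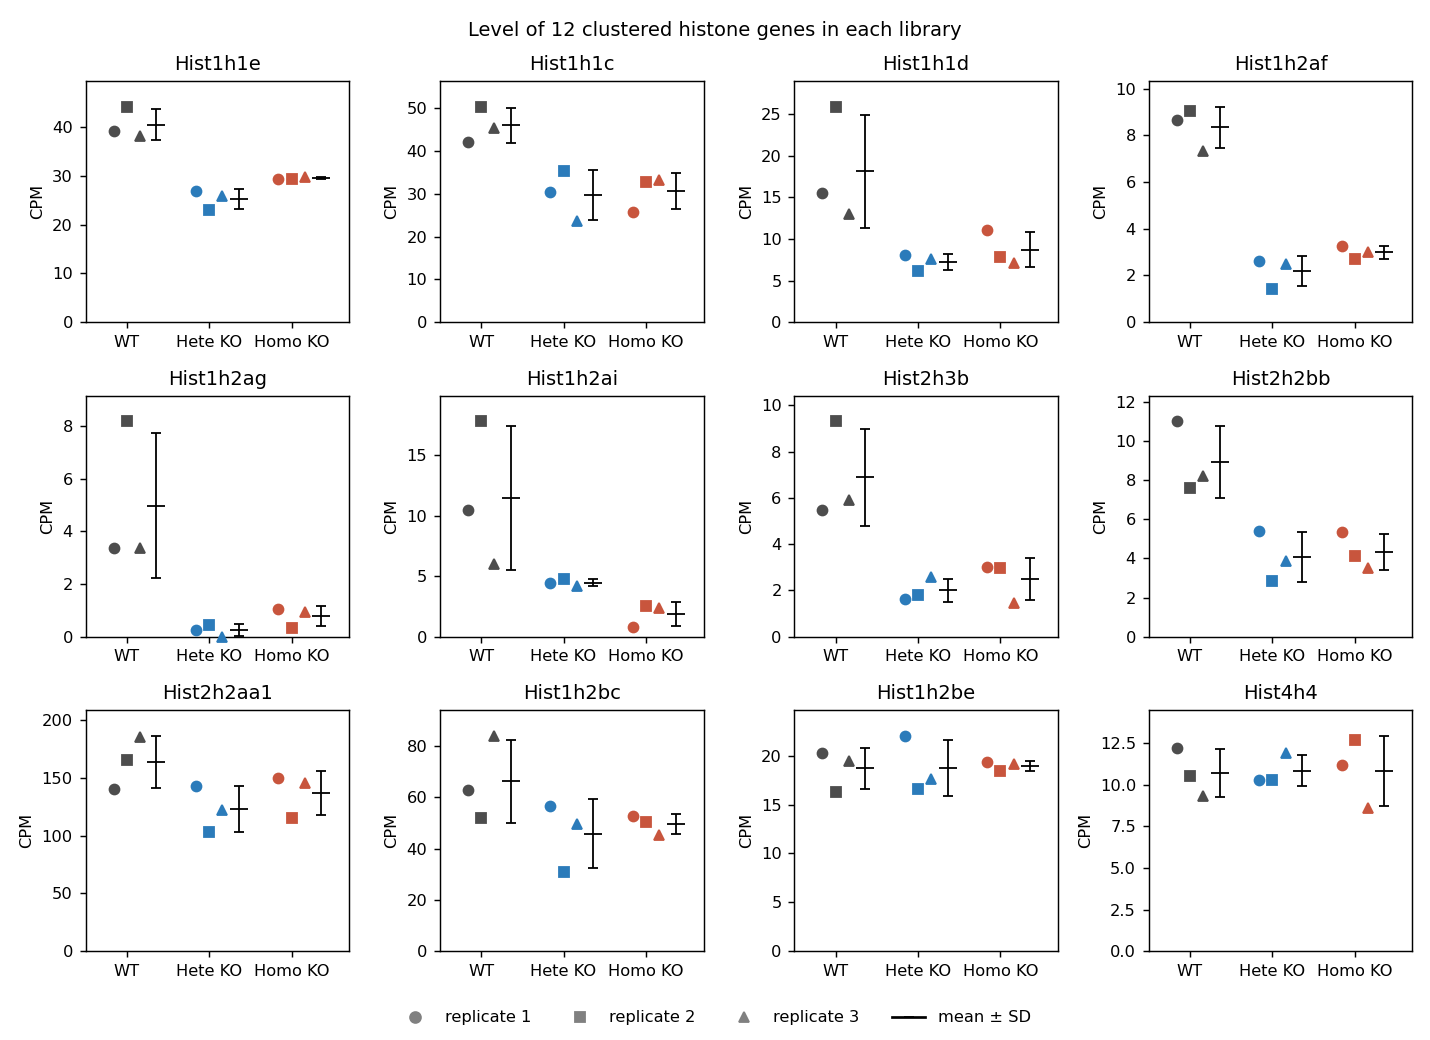
CPM (vertical axis, from 0) of 12 clustered histone genes in each library, with the mean ± SD of 3 libraries per group. The WT libraries stand above all knockout libraries from Hist1h1e to Hist2h2bb, and the groups overlap for Hist2h2aa1, Hist1h2bc, Hist1h2be and Hist4h4.

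H2B genes ranged from log2 fold changes below -1 to values near 0, and none was called by edgeR. Hist2h2bb, a compact gene of the Hist2 cluster, was at 11, 7.58 and 8.20 CPM in WT, 5.41, 2.87 and 3.89 CPM in Hete KO and 5.34, 4.14 and 3.53 CPM in Homo KO. The groups did not overlap, with log2 fold changes of -1.14 (edgeR adjusted p = 0.0764) and -1.04 (edgeR adjusted p = 0.183). The most abundant H2B gene by CPM, Hist1h2bc, was at 62.7, 51.9 and 83.8 CPM in WT, 56.7, 30.9 and 49.7 CPM in Hete KO and 52.7, 50.5 and 45.1 CPM in Homo KO. These overlapped, with log2 fold changes of -0.53 and -0.42 (edgeR adjusted p = 0.211 and 0.387). Hist1h2be, whose H2B protein is identical to that of Hist1h2bc, was near the WT level, at 20.3, 16.3 and 19.5 CPM in WT, 22.0, 16.6 and 17.6 CPM in Hete KO and 19.3, 18.4 and 19.1 CPM in Homo KO. Its log2 fold changes were 0.00 and 0.02, each with an SE of 0.147. Most Hist1h2be counts went to 1 transcript without an annotated coding sequence, at 351 of 487, 243 of 407 and 437 of 546 in WT. In Hete KO that transcript held 450 of 594, 280 of 393 and 250 of 362 counts. In Homo KO it held 323 of 426, 311 of 387 and 341 of 466. The Hist1h2be level therefore says little about mRNA for the H2B protein. Hist2h2be lay slightly above WT on average, at 0.10 and 0.31 with an SE of 0.336.

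The H3 sums of both proteins were lower in CPM, though edgeR called no single H3 gene. Hist2h3b, of the 8-gene H3 protein, was at 5.47, 9.30 and 5.92 CPM in WT, 1.63, 1.81 and 2.58 CPM in Hete KO and 3.03, 2.99 and 1.44 CPM in Homo KO. No knockout library reached WT, and the log2 fold changes were -1.78 (edgeR adjusted p = 0.0597) and -1.47 (edgeR adjusted p = 0.162). Hist2h3c1 and Hist2h3c2, the neighbouring genes for the same protein with extended models, overlapped between groups, with log2 fold changes of -0.64 and -0.36 for Hist2h3c1 and of -0.94 and -0.99 for Hist2h3c2 in Hete KO and Homo KO. The Hist2h3c2 values rest on single libraries: in Hete KO the log2 fold change was -1.69 without Hete KO 1, -0.60 without Hete KO 2, -0.62 without WT 3 and -0.19 without the liver libraries, and in Homo KO it ran from -1.44 without the muscle to -0.24 without the liver libraries. Summed over the 8 genes, the protein's mRNA was at 32.2 to 34.7 CPM in WT, 11.3 to 22.2 CPM in Hete KO and 17.7 to 22.2 CPM in Homo KO. The 4-gene protein was rarer, at 2.99 to 4.18 CPM in WT, 1.05 to 1.78 CPM in Hete KO and 1.48 to 2.76 CPM in Homo KO, without overlap in CPM, while in TPM the highest Homo KO library (15.3) passed the lowest of WT (14.9). Of its members, Hist1h3a had log2 fold changes of -0.06 in Hete KO and 0.03 in Homo KO (SE 0.914 and 0.913). Hist1h3h stood at -0.80 and 0.45 in the same order (SE 1.21 and 1.17). Each SE was larger than its fold change, so these values do not show that the members differ. Hist1h3a also passed the count filter with the help of WT. Another gene of the 4-gene protein, Hist1h3g, had 14, 38 and 20 reads in WT. It had 9, 3 and 9 reads in Hete KO and 0, 2 and 0 reads in Homo KO. It too passed the count filter with the help of WT. Its fitted log2 fold change of -4.74 in Homo KO (edgeR adjusted p = 0.154) rests on those few counts and varied from -7.52 to -2.75 over the alternatives. Hist1h3e was near the WT level, with log2 fold changes of -0.01 and 0.12 (SE 0.263 and 0.262).

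In H4 the most abundant members were close to the WT level. Hist4h4, on the minus strand of chromosome 6 (136801553 to 136804415), was at 12.2, 10.5 and 9.34 CPM in WT, 10.3, 10.3 and 11.9 CPM in Hete KO and 11.2, 12.7 and 8.58 CPM in Homo KO. The groups overlapped fully, with log2 fold changes of 0.02 and 0.02 (SE 0.184 and 0.185). Hist1h4h, the next by CPM, was at 2.69 to 4.78 CPM in WT, 3.25 to 4.91 CPM in Hete KO and 3.49 to 4.93 CPM in Homo KO, with log2 fold changes of 0.06 and 0.10. The signs of these small values turned when single libraries were left out. Hist2h4 was lower without overlap, at 3.93 to 3.99 CPM in WT, 2.63 to 3.12 CPM in Hete KO and 3.08 to 3.18 CPM in Homo KO. Its log2 fold changes were -0.46 and -0.33 (edgeR adjusted p = 0.223 and 0.437). Of the 5 tested H4 genes with compact models, Hist1h4f and Hist1h4k, the latter 1 of the 7 that passed with the help of WT, lay below WT in every knockout library, and Hist1h4h, Hist1h4m and Hist1h4n overlapped. Hist1h4f was rare, at 0.963 to 1.56 CPM in WT, 0.295 to 0.630 CPM in Hete KO and 0.544 to 0.903 CPM in Homo KO.

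Within each type, the summed ratios of compact genes were below those of extended genes, by amounts that differed between types. This split was chosen after the values were seen and is given as a description. In H1 the compact genes summed to a log2 ratio of -1.47 in Hete KO and -1.03 in Homo KO, and the extended genes to -0.75 and -0.60. In H2B the compact ratios were -1.02 and -1.03, and the extended ratios -0.42 and -0.31. Compact H3 genes summed to 17.5, 19.1 and 15.9 CPM in WT, 6.38, 4.51 and 6.32 CPM in Hete KO and 8.70, 9.93 and 6.49 CPM in Homo KO, a clear gap with ratios of -1.61 and -1.06. Extended H3 genes summed to 18.8, 19.0 and 21.8 CPM in WT, 17.7, 7.80 and 12.2 CPM in Hete KO and 15.6, 14.4 and 12.7 CPM in Homo KO, a smaller step with ratios of -0.67 and -0.48. In H4 the compact ratios were -0.41 and -0.39 and the extended ones -0.08 and -0.16. In H2A, whose compact genes include Hist2h2aa1, the compact ratios were -0.62 and -0.37 and the extended ones -0.39 and -0.32. Over all types the compact ratios (-0.70 and -0.46) were close to the extended ones (-0.53 and -0.42). No test of the difference between compact and extended genes was run. Compact models are also short and share more sequence with other genes: a model of 381 bases, the commonest length, had an effective length of 192 to 206 bases, so its TPM depends strongly on the fragment length.

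**Figure D4:**
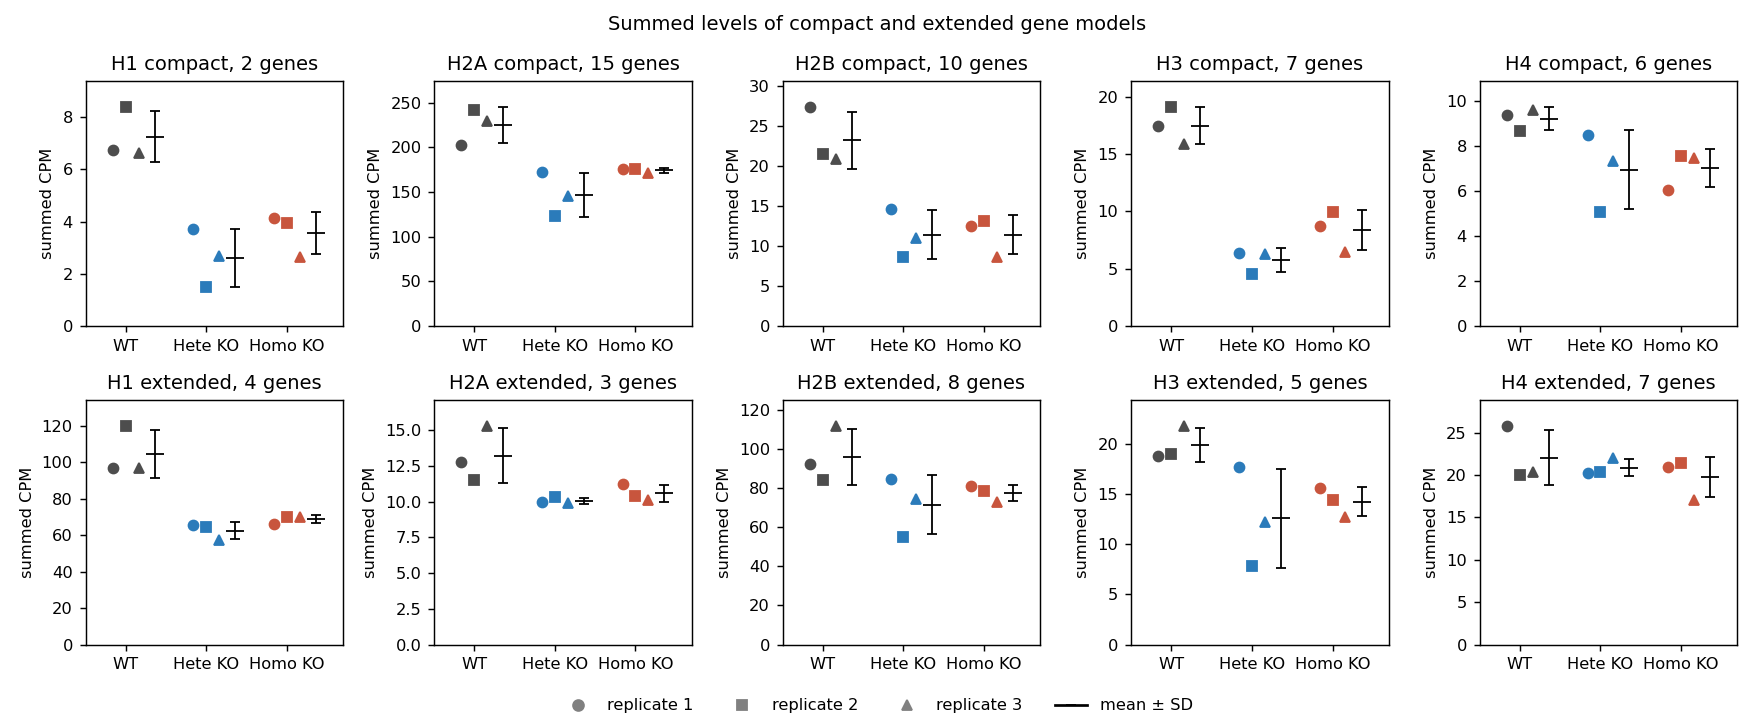
Summed CPM (vertical axis, from 0) of genes with compact (upper row) and extended (lower row) transcript models in each library for each histone type, with the mean ± SD of 3 libraries per group. Compact H3 genes lie at 15.9 to 19.1 CPM in WT and 4.51 to 9.93 CPM in the knockouts, and extended H4 genes overlap.

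Promoter sequences show how the genes are laid out. RefSeq (GRCm38.p6) promoters were matched for 62 of the 67 genes, and the 250 bases before each start were searched on both strands. TATAAA was present in 46.8% of them and in 12.37% of all 32851 RefSeq promoters, CCAAT in 82.3% and 33.85%, and the octamer ATTTGCAT in 21% and 1.60%. CCAAT was found in all matched H1, H2A and H2B promoters but in 25.0% of those of H4, and the octamer only in H2A (7 of 18) and H2B (6 of 16). None of the 3 motifs contains another. The 150 bases before the start of the 2 genes called in Hete KO, of Hist4h4, which was near the WT level, and of a head-to-head pair are printed 5′ to 3′ on the gene's strand, with matches to these motifs on either strand in capitals.
Hist1h1e, chr13:23622559-23622708, minus strand: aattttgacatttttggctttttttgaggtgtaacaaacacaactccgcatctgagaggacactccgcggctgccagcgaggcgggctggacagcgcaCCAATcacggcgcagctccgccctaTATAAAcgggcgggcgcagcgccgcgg
Hist1h2af, chr13:23533725-23533874, plus strand: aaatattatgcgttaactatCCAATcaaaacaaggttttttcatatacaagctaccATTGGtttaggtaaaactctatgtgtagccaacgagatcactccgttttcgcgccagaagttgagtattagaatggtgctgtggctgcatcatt
Hist4h4, chr6:136804432-136804581, minus strand: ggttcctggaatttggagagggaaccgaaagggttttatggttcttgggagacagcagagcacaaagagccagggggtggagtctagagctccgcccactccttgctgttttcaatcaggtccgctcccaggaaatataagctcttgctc
Hist1h2ag, chr13:22042950-22043099, minus strand: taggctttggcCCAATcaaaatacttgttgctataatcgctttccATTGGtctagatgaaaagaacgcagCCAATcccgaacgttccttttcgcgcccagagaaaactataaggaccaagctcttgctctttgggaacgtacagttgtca
Hist1h2bj, chr13:22043048-22043197, plus strand: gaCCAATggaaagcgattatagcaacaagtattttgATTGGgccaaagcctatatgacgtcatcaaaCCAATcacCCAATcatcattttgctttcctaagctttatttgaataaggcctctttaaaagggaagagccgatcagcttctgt
The Hist1h1e window holds CCAAT and TATAAA, that of Hist1h2af CCAAT on both strands, and that of Hist4h4 none of the 3. The windows of Hist1h2ag and Hist1h2bj overlap, since these genes start 269 bases apart and run away from each other.

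Such head-to-head pairs joined 26 of the 67 genes into 13 pairs, 12 of them an H2A with an H2B gene, with 175 to 305 bases between their starts. In 7 of these 12 pairs both genes were tested. Both members lay below 0 in both comparisons with WT in 6 of the 7 pairs, where 50 and 49 of all 56 tested genes lay below 0, so the count says nothing particular to paired genes. Hist1h2ag and Hist1h2bj were at -4.31 and -1.52 in Hete KO and at -2.67 and -1.46 in Homo KO. Hist1h2ac and Hist1h2bc were at -0.78 and -0.53 in Hete KO and at -0.67 and -0.42 in Homo KO. The pair that differed in sign was Hist2h2ac at -0.78 and -0.68 with Hist2h2be at 0.10 and 0.31. Annotated genes on the opposite strand overlap 21 of the 67 genes, and no source used here says whether the counting used strand. Gene spans also overlap on the same strand. Hist2h2aa1 shares 529 bases and Hist2h3c1 1825 bases with Gm20634, Hist2h2bb 381 with Gm42743 and Hist3h2a 2146 with Trim17.

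Between the knockouts, no clustered histone gene passed the edgeR test in Homo KO against Hete KO (background 0%). At an unadjusted p under 0.05, 2 were lower (background 3.19%) and 1 was higher (background 2.25%), and DESeq2 called none of them (background 0.0445%). The median log2 difference was 0.13 over the 56 tested genes and 0.00 over all genes. It rests on Hete KO 2, the library highest in muscle transcripts: without it the median was 0.02, with 27 of 57 genes below 0 in place of 14 of 56. The groups did not overlap for 5 genes lower in Homo KO (background 5.64%) and 3 higher (background 5.73%). The lower ones included Hist1h2ai, at a log2 difference of -1.25, and Hist1h3g, at -3.10. Hist1h1e was higher in all Homo KO than in all Hete KO libraries, by 0.22 (edgeR adjusted p = 0.905). Hist1h2bg and Hist1h2br, both H2B genes, were at 0.89 and 1.13, with an adjusted p of 0.899 or more in edgeR.

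Genes that act on histone mRNA showed no such shift. In a list of 28 genes for histone mRNA processing and transcription, none passed the edgeR test in either comparison with WT, and the median log2 fold changes were 0.05 in Hete KO and 0.03 in Homo KO. At an unadjusted p under 0.05 none was lower (background 12.1% and 8.68%) and 2 were higher in each. Of all 17968 tested genes, 1744 were higher in this way in Hete KO and 1392 in Homo KO. DESeq2 called none of the 28, where it called 5.70% and 2.02% of all genes lower. Slbp was at 21.5, 23.7 and 22.3 CPM in WT, 24.4, 19.4 and 26.0 CPM in Hete KO and 26.3, 24.3 and 24.6 CPM in Homo KO. Npat, the cyclin E/Cdk2 substrate that activates histone transcription, differed by 0.17 and 0.13 on the log2 scale. Casp8ap2 (FLASH), a histone processing factor, stood at 0.41 and 0.38 (edgeR adjusted p = 0.129 and 0.238).

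Histone genes outside the clusters, most but not all of which are expressed independently of replication and carry introns or poly(A) tails, were mixed. Among 11 of them none was called by edgeR, with medians of -0.19 and -0.08. At an unadjusted p under 0.05, 4 were lower in each comparison (background 12.1% and 8.68%). DESeq2 called 4 of the 11 lower in Hete KO and 1 in Homo KO (background 5.70% and 2.02%). H2afx, the DNA damage variant, was at 3.80, 7.82 and 5.28 CPM in WT against 2.11 to 2.37 CPM in Hete KO and 2.38 to 3.67 CPM in Homo KO. H2afz was at 22.0 to 23.1 CPM in WT, 11.6 to 16.1 CPM in Hete KO and 10.6 to 16.4 CPM in Homo KO. Neither overlapped, with log2 fold changes of -1.31 and -0.80 for H2afx and -0.74 and -0.66 for H2afz, none of which passed the test (edgeR adjusted p from 0.0696 to 0.251). The replacement histone genes H3f3a and H3f3b differed from WT by 0.26 and -0.44 on the log2 scale in Hete KO, and by 0.19 and -0.19 in Homo KO. H1f0, the linker histone of resting cells, differed by 0.16 and 0.17 in the same order. The median of 21 histone chaperone genes was -0.14 and -0.06, with none called by edgeR and 2 called lower in Hete KO by DESeq2 (background 5.70%).

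Proliferation genes were tested beside the histones. The 20 mitosis genes summed to 281, 279 and 189 CPM in WT, 129, 89.9 and 123 CPM in Hete KO and 158, 127 and 115 CPM in Homo KO. No knockout library reached the lowest WT library in CPM, but in TPM Homo KO 1 (96.6) passed WT 3 (89.7), and the list's median log2 fold changes were -1.30 and -1. In Hete KO 2 of the 20 passed the edgeR test, Cenpe (-1.85, adjusted p = 0.0326) and Aurkb (-1.70, adjusted p = 0.0403), beside 0.267% of all genes called lower. In Homo KO none passed (background 0%), and 12 were lower at an unadjusted p under 0.05 (background 8.68%). DESeq2 called 11 of the 20 lower in Hete KO (background 5.70%) and 8 in Homo KO (background 2.02%). Mki67, the common proliferation marker, was at 104, 102 and 63.4 CPM in WT, 44.7, 21.3 and 43.5 CPM in Hete KO and 55.2, 43.1 and 36.4 CPM in Homo KO. The 30 genes of DNA replication and S phase differed less, at 388, 410 and 361 CPM in WT, 334, 292 and 327 CPM in Hete KO and 337, 341 and 321 CPM in Homo KO, with medians of -0.34 and -0.23. These sums did not overlap WT in CPM, but in TPM both knockouts did, at 309, 309 and 251 TPM in WT, 261, 209 and 254 TPM in Hete KO and 280, 321 and 230 TPM in Homo KO. None of the 30 was called by edgeR, with 11 and 8 lower at an unadjusted p under 0.05 (background 12.1% and 8.68%). DESeq2 called 6 lower in Hete KO and 1 in Homo KO (background 5.70% and 2.02%). Pcna, the replication clamp, differed from WT by -0.21 and -0.11 on the log2 scale.

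**Figure D5:**
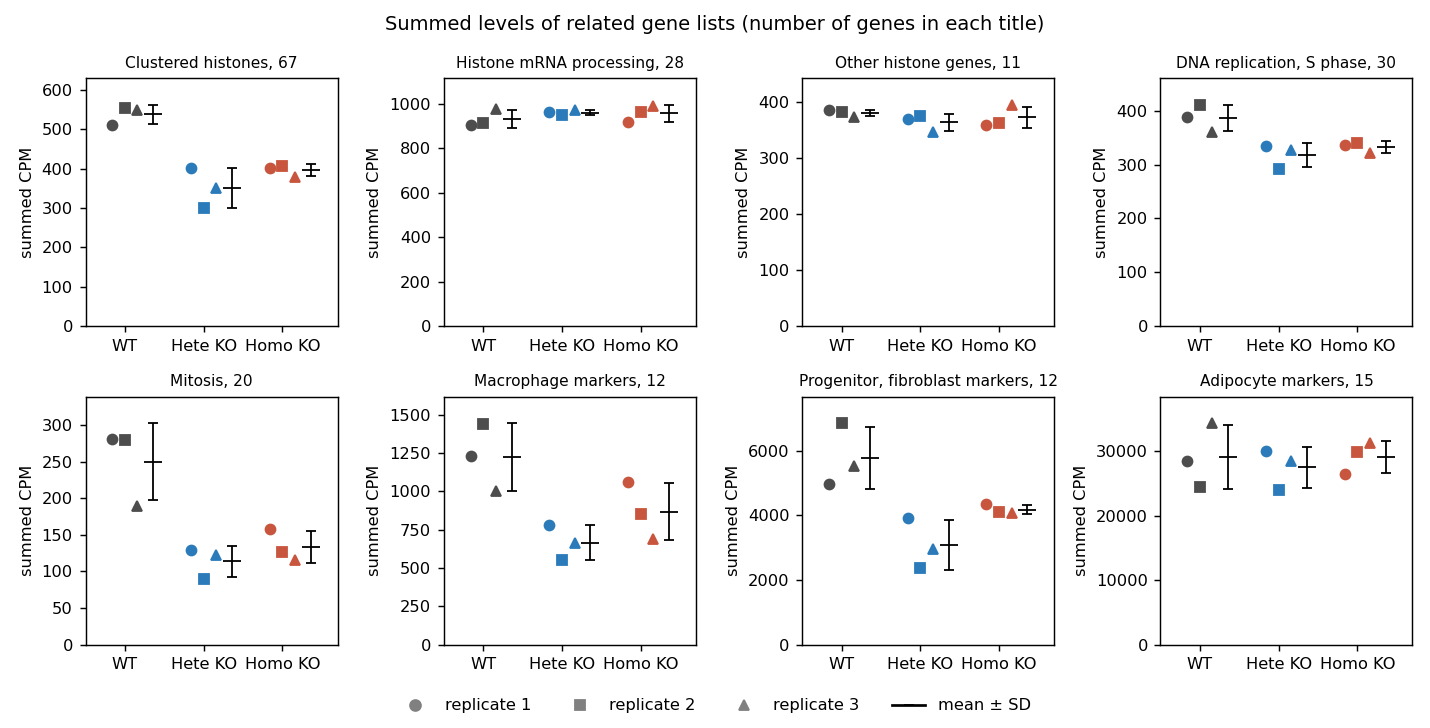
Summed CPM (vertical axis, from 0) of the clustered histone genes and of 7 other gene lists in each library, with the mean ± SD of 3 libraries per group; the number in each title counts the genes. Mitosis genes lie at 189 to 281 CPM in WT and 89.9 to 158 CPM in the knockouts, and histone mRNA processing genes overlap.

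Markers of some other cell types also had lower sums in the knockouts. The 12 macrophage markers summed to 1230, 1440 and 1000 CPM in WT, 780, 552 and 660 CPM in Hete KO and 1060, 855 and 688 CPM in Homo KO, so that only Hete KO was free of overlap with WT, and C1qc was called lower there (edgeR adjusted p = 0.0426). The 12 progenitor and fibroblast markers summed to 4960, 6850 and 5520 CPM in WT, 3910, 2380 and 2960 CPM in Hete KO and 4340, 4120 and 4070 CPM in Homo KO without overlap with WT, and Dpp4 was called lower in Hete KO (edgeR adjusted p = 0.0490). In Hete KO edgeR called 0.267% of all genes lower. DESeq2 called 9 of the 12 macrophage and 11 of the 12 progenitor and fibroblast markers lower there (background 5.70%). In Homo KO it called 2 and 3 lower (background 2.02%), and none of either list was called higher. Median log2 fold changes in Hete KO and Homo KO were -1.13 and -0.58 for macrophage and -0.80 and -0.34 for progenitor and fibroblast markers. Red cell genes were also lower, at 271 to 299 CPM in WT against 115 to 167 CPM in Hete KO and 78.8 to 218 CPM in Homo KO. Sums of adipocyte, endothelial and lymphocyte markers overlapped between all groups. The part of these cell types in the histone difference was not tested. Without the 3 libraries high in muscle transcripts, the histone log2 ratios to WT were -0.55 in Hete KO and -0.47 in Homo KO, and without the 2 high in liver transcripts they were -0.54 and -0.37, though each of these leaves 1 WT library.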

How the data were processed

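The deposited tables give, for each transcript and library, estimated counts (expected counts), a TPM value, the length and the effective length (unit names per the file headers). Per the submitters' processing notes the genome build was mm10; a quantification tool was not stated. The authors' expected counts and TPM were summed per gene over GENCODE M21 (matching 98.38% of 113193 transcripts; the rest held 0.58% to 1.06% of counts), and summed counts were rounded. The lengths, deposited as another quantity, only described models. Genes passing edgeR's filterByExpr (17968) entered edgeR 4.0.16 (R 4.3.3; TMM, quasi-likelihood F-test, prior count 0.125, all 9 libraries, 6 residual degrees of freedom), with Benjamini-Hochberg adjustment over all of them and a threshold of 0.05. CPM are TMM-scaled. Sums over genes carry no test. The code was tested on simulated data.

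The histone genes and all lists were chosen with earlier results of these data known. Named genes are those past the threshold in any comparison, the 5 of smallest p in each comparison, the 3 of highest mean CPM in each histone type, called genes of the other lists and set reference genes; others named (Hist1h1a, Hist1h1b, Hist1h1t, Hist2h2be, Hist1h3e, Hist1h4f and genes named for copies or head-to-head pairs) were chosen after their values were seen. Alternatives were DESeq2 1.42.0, limma 3.58.1 on log2 TPM with pseudocounts of 0.5 and 0.1, RLE scaling, other filters, a replicate block, the 2 groups alone, and leaving out libraries. Figures used Python with matplotlib.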

Additional observations from a re-analysis of the deposited data

How the results depend on the processing

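The log2 ratios of summed histone levels kept their direction against WT for all 67 genes together and for each type under every alternative run. For H4 in Hete KO, at -0.17 with all libraries, the ratio was much smaller in size without the muscle libraries or without WT 1. With TPM in place of CPM the ratio in Homo KO was -0.53 for all genes, -0.46 for H2A, -0.65 for H2B, -0.88 for H3 and -0.46 for H4, and in Hete KO -0.79 for H2B and -0.40 for H4. Without the libraries high in liver transcripts (WT 2, WT 3) it was -0.37 for all genes, -0.22 for H2A and -0.40 for H4 in Homo KO and -0.34 for H4 in Hete KO. Without those high in muscle transcripts (WT 1, WT 2, Hete KO 2) it was -0.58 for H2B in Homo KO. Leaving out 1 library at a time gave -0.73 to -0.52 for all genes in Hete KO and -0.48 to -0.41 in Homo KO.

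Counts of called genes moved more. In Homo KO against WT DESeq2 called 8 (2.02% of all genes called lower). Leaving aside the fits without the muscle or liver libraries, the other alternatives called 0. In those at most 0.722% of all genes was called lower. In Hete KO against WT, where 2 were called, DESeq2 called 14 (5.70% of all genes called lower), edgeR without a filter on low counts 5 (0.660%) and edgeR with a replicate block 4 (0.868%), against 0.267% for the 2. Limma on TPM with either pseudocount or without a filter and the fit of the 2 groups alone called 0. They also called 0% of all genes lower. The fits without the muscle or the liver libraries leave 1 WT library, whose spread is taken from the other groups. They say little about the calls. Leaving out 1 library gave 0 to 9 calls. There were 9 without Hete KO 1 (3.25% of all genes lower), 4 without WT 1 (1.65%) and 1 without WT 3 (0.0762%). Calls fell to 0 without any 1 of WT 2, Hete KO 2, Hete KO 3 or the Homo KO libraries. In those fits at most 0.0108% of all genes was called lower. The cause was not tested. Whether the replicate numbers pair the libraries was not settled. Of the same-number pairs, 3 of 9 correlated above 0.1 (-0.07 to 0.46), and different-number pairs ran from -0.45 to 0.25. Of the 9 libraries, 5 correlated best with their own number.

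Of the genes named against WT with all alternatives run, Hist1h2be, Hist4h4 and Hist1h4h turned sign. Other signs turned too: in Homo KO against WT 46 of 57 genes lay below 0 without WT 1, in place of 49 of 56. Hist1h2be in Homo KO was at -0.04 without the muscle libraries and -0.10 without the liver ones, and between -0.07 (without WT 2) and 0.09 (without WT 1) with 1 library left out. Hist4h4 in Homo KO was at -0.17 without the liver libraries, -0.05 without WT 3, -0.11 without Homo KO 2 and at most 0.18 with 1 library left out, and in Hete KO at -0.17, -0.05, -0.03 (without Hete KO 3) and at most 0.15. Hist1h4h in Homo KO was at -0.18 without the muscle and -0.03 without the liver libraries, -0.11 without WT 2, -0.02 without Homo KO 3 and at most 0.28, and in Hete KO at -0.07, -0.07, -0.13, -0.06 (without Hete KO 3) and at most 0.25.

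With 3 libraries per group, gene-level differences of the size of the replicate spread were not detectable.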
